A study of Mus musculus with 20 samples.

Results

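The genes described here encode the digestive enzymes of the lysosome and their helper proteins, proteins of the lysosomal membrane, subunits of the proton pump that acidifies the lysosome, and a pair of transcription factors of the MiT family. They were taken by name from a list of lysosomal genes that applies no threshold to measured values but was written with earlier results of these data known. All 37 listed genes were found among the 54325 genes of the deposited tables. Liver mRNA of C57BL/6 mice was sequenced in 4 groups that crossed 2 diets with 2 antibodies. The groups were the MCD diet with anti-ACBP, the MCD diet with IgG, regular chow with anti-ACBP, and regular chow with IgG. ACBP, encoded by Dbi, is an acyl-CoA carrier that cells also release, and anti-ACBP is an antibody raised against it, with IgG as its control. MCD stands for methionine and choline deficient, a feed that causes steatohepatitis in mice with loss of weight and without obesity. The labels call the MCD groups NASH and the chow groups healthy, and give no sex, age, dose, sampling time or batch. They list 5 samples per group. The deposited MCD means rest on 5 libraries per group, and the deposited chow means on 4 per group.

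Lysosomes digest material delivered by autophagy, endocytosis and phagocytosis. Their hydrolases work at acid pH, which is kept by the V-ATPase, a pump made of a cytosolic V1 sector and a V0 sector in the membrane. The MiT factors TFEB, TFE3, MITF and TFEC bind E-box sequences in the promoters of many lysosomal genes and can raise their transcription as a group. In the liver hepatocytes use lysosomes to turn over organelles and lipid droplets, and macrophages hold many lysosomes for the digestion of engulfed cells and lipid. The title of the series places the antibody in the setting of organ protection that depends on autophagy, the pathway that ends in the lysosome.

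Each table gives the mean normalized count of a gene in each group. It also gives a log2 fold change, anti-ACBP over IgG, and a standard error (SE). Every group mean, fold change and SE of the antibody effect given here is from the authors' deposited tables, as are adjusted p-values of 0.001 or more. Smaller ones were recomputed from the Wald statistic. A gene was called higher or lower when its adjusted p was under 0.05. Values of single libraries were not used here, so the spread between libraries enters only through the SE. Nothing in the labels says that the samples of a group came from separate animals, and the p-values then measure only the spread between samples. The group columns of the authors' deposited tables summed to between 34621779 and 39398190 normalized counts. Dbi had 23709 normalized counts in MCD anti-ACBP livers and 13686 in MCD IgG livers in the authors' deposited table, a log2 fold change of 0.79 ± 0.097 (SE; adjusted p = 1.12e-14). On chow Dbi had 24526 with anti-ACBP and 24311 with IgG (0.01 ± 0.087, adjusted p = 0.952). The 16 hepatocyte markers were all measured and summed to between 103336 and 140179 of each 1000000 normalized counts in the 4 groups. All 37 lysosomal genes passed the authors' filter on low values in both tables, where the lowest mean over all libraries was 82.9 on MCD and 23.0 on chow.

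On the MCD diet many lysosomal genes were lower in livers given anti-ACBP. Of the 37 genes 20 were lower and 3 were higher, and 14 were not called. Of the lysosomal genes 54.1% were thus lower and 8.11% higher, against 16.2% lower and 14.7% higher over all 20265 genes tested on MCD. Their median log2 fold change was -0.31, against 0.02 over all genes tested. The falls ran through the cathepsins, the lipid-handling proteins of the lumen and the V-ATPase, whereas Lamp1 and Lamp2, the main glycoproteins of the membrane, were not called. The genes that rose were Glb1, Ctsh and Mcoln1. On chow 1 gene was lower, Ctsl, and 0 were higher, while 6.46% of the 14618 genes tested on chow were lower and 5.58% were higher. The median log2 fold change of the lysosomal genes on chow was -0.02, against 0.00 over all genes tested.

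The scale of the tables bears on these counts. Normalized counts of the MCD table summed to 39398190 with anti-ACBP and 34621779 with IgG, so scaling each column to its total shifts every log2 fold change on MCD by -0.19, and on chow by 0.14. With column totals as the scale, 27 lysosomal genes were lower and 1 was higher on MCD, while 5468 of all genes were lower and 1398 were higher there. With the authors' scale 3288 were lower and 2973 were higher. On chow column totals gave 533 lower and 2605 higher genes in all, against 945 and 816 with the authors' scale, and 1 lower and 4 higher lysosomal genes.

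**Figure D1:**
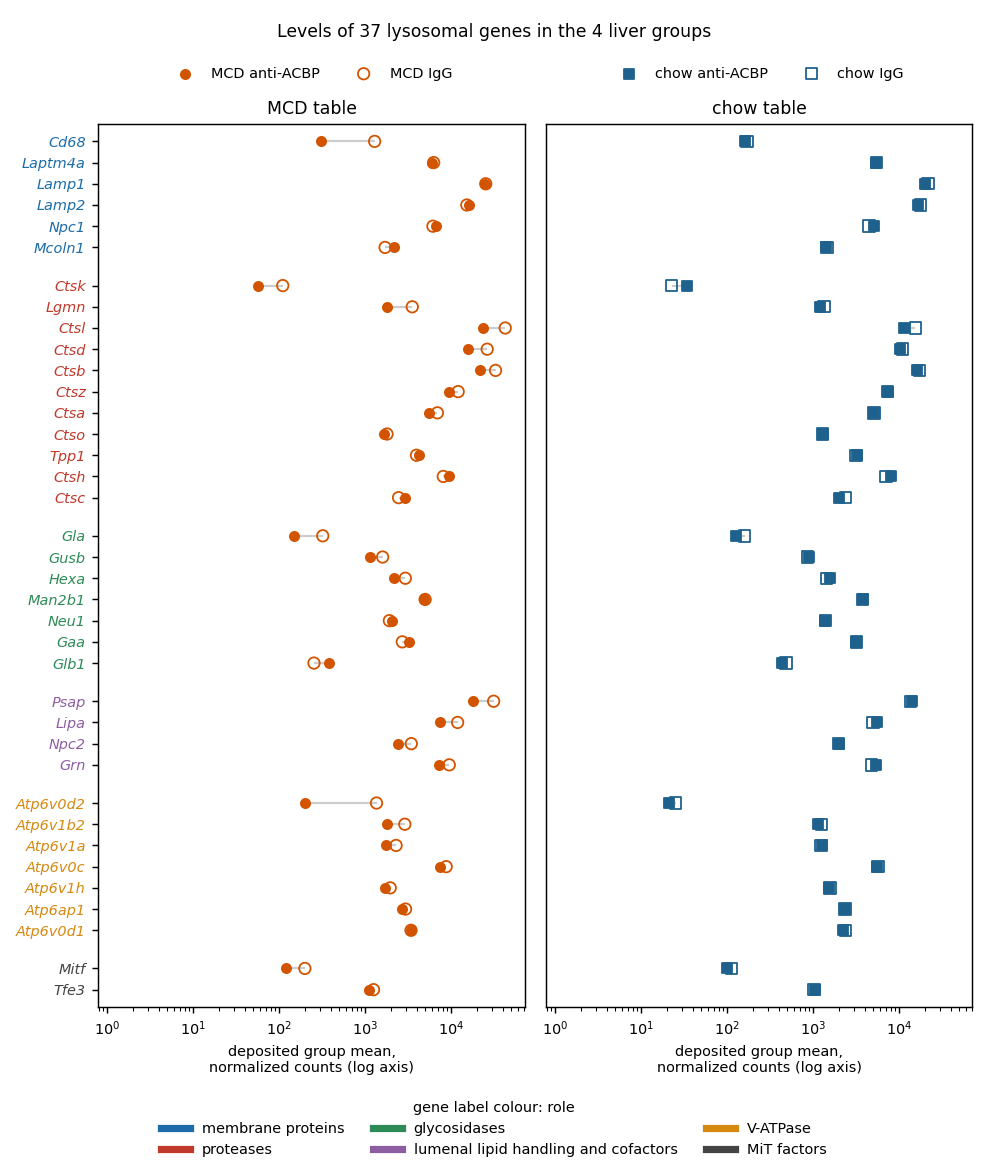
Deposited group means of the 37 lysosomal genes in normalized counts on a log axis, with the MCD table on the left and the chow table on the right. Filled symbols are anti-ACBP groups, open symbols are IgG groups, label colours give the role, and the lines join both groups. On MCD the filled circles of Cd68 (308 with anti-ACBP, 1287 with IgG) and Atp6v0d2 (199.8 with anti-ACBP, 1353 with IgG) lie farthest left of the open ones, and on chow the symbols of most genes nearly coincide.

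Promoter sequence was examined because the MiT factors are known to bind E-boxes. A RefSeq promoter window, from 250 bases before to 50 bases after an annotated start on GRCm38.p6, was found for 31 of the 37 genes. The motif CACGTG, which reads the same on both strands, occurred in the windows of 11 of the 31 genes (35.5%). It occurred in 8.09% of all 27025 genes with a window, and in 11.4% of the 10773 genes with a window that were tested in both tables. The form TCACGTG, searched on both strands and overlapping the E-box, occurred in 10 of 31 genes (32.3%) and in 4.29% of all genes. TCATGTG, the M-box known from MITF targets in pigment cells, occurred in 5 of 31 (16.1%) and in 4.31%, on either strand. The longer CLEAR palindrome, an E-box with GT before it and AC after it, occurred in 0 of 31 lysosomal genes and in 0.370% of all genes. A match is a description of letters and not a binding site. Among genes with a window the E-box was present in 6 of 16 that were lower on MCD with anti-ACBP, in 2 of 2 that were higher, and in 3 of 13 that were not called. It was thus found among genes of all 3 outcomes.

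Stretches that end at the base before the annotated start are shown for 6 genes with different outcomes on MCD, so that the E-boxes can be read in place. Capitals mark CACGTG. Mcoln1 (chr8:3500399-3500518, plus strand) and Glb1 (chr9:114400958-114401077, plus strand) were higher with anti-ACBP, and Lamp1 (chr8:13159041-13159160, plus strand) was not called and holds 4 E-boxes within its last 61 bases. Ctsd (chr7:142387828-142387947, minus strand) and Gla (chrX:134601006-134601255, minus strand) were lower, and so was Cd68 (chr11:69666171-69666290, minus strand), which has 0 E-boxes in its stretch.
Mcoln1: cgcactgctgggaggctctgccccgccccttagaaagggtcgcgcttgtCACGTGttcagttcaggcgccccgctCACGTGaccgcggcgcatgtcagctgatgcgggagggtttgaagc
Glb1: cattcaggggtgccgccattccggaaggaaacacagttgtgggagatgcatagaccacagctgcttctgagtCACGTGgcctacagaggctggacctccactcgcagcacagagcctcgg
Lamp1: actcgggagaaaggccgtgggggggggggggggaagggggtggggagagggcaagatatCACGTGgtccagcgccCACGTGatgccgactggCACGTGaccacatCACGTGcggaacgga
Ctsd: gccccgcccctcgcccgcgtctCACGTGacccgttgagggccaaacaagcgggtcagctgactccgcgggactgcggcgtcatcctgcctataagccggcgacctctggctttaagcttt
Gla: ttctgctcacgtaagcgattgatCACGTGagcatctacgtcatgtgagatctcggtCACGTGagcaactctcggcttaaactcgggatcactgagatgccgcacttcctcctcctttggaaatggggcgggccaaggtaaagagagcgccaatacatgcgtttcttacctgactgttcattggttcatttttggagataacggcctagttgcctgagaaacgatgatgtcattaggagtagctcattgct
Cd68: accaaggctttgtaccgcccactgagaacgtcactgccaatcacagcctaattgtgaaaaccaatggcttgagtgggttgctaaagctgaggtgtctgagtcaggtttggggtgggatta

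**Figure D2:**
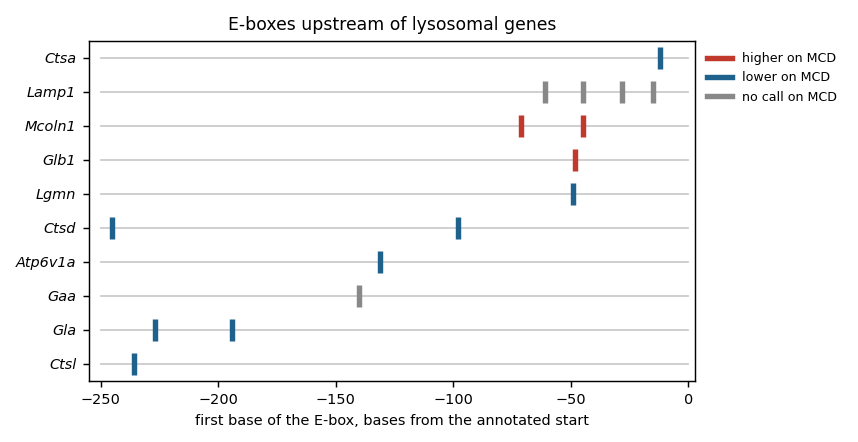
Position of each E-box that lies wholly before the annotated start, in bases from the start, for the 10 lysosomal genes with one. Red bars are genes higher with anti-ACBP on MCD, blue bars genes that were lower and grey bars genes with no call. Lamp1 has 4 within 61 bases of its start, Mcoln1 has 2 at 71 and 45 bases before it, and the E-box of Glb1 starts 48 bases before it.

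Among the 6 membrane proteins 1 fell and 1 rose with anti-ACBP on MCD, and 4 were not called. These counts were near the shares over all genes tested (16.2% lower and 14.7% higher). The median was 0.04 (-0.15 with column totals), against 0.02 over all genes tested on the authors' scale. Cd68, a glycoprotein of macrophage lysosomes, had 308 normalized counts with anti-ACBP and 1287 with IgG in the authors' deposited MCD table, which is 4.17-fold lower (log2 -2.06 ± 0.164, adjusted p = 7.78e-34). Mcoln1, the calcium-permeable channel TRPML1 of the lysosomal membrane, had 2158 with anti-ACBP and 1702 with IgG and was higher (0.34 ± 0.13, adjusted p = 0.0309). Mcoln1 lost its call with column totals (0.16, adjusted p = 0.387), whereas the fall of Cd68 was far outside its error. Lamp1 stood at 25077 normalized counts with anti-ACBP and 25256 with IgG (-0.01 ± 0.063, adjusted p = 0.929), with an interval from -0.13 to 0.11. Lamp2, whose splice form LAMP2A is the receptor of chaperone-mediated autophagy, had 16160 with anti-ACBP and 15218 with IgG (0.09 ± 0.094, adjusted p = 0.541). Changes of Lamp1 and Lamp2 beyond these narrow intervals were thus not seen on the authors' scale, although column totals placed Lamp1 lower (-0.20, adjusted p = 0.00743). Npc1, which exports cholesterol from the lysosome, and Laptm4a, a small membrane protein, were not called either, at 0.13 ± 0.132 and -0.06 ± 0.064.

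Proteases formed the largest group, and 7 of 11 were lower with anti-ACBP on MCD, 1 was higher and the median was -0.37. Ctsl, a cysteine cathepsin with broad endopeptidase activity, had 23696 with anti-ACBP and 42567 with IgG in the authors' deposited MCD table, which is 1.8-fold lower (-0.85 ± 0.170, adjusted p = 7.38e-06). Ctsb, another abundant cysteine cathepsin, had 21489.9 with anti-ACBP and 32857 with IgG (-0.61 ± 0.080, adjusted p = 1.03e-12). Ctsd, the main aspartic protease of the lysosome, had 15815 with anti-ACBP and 26259 with IgG (-0.73 ± 0.103, adjusted p = 3.05e-11). These 3 cathepsins were thus lower with anti-ACBP by 1.53-fold to 1.8-fold. Lgmn, an asparaginyl endopeptidase that cleaves cathepsins to their mature forms, had 1804 with anti-ACBP and 3526 with IgG (-0.97 ± 0.122, adjusted p = 9.52e-14). Ctsk, a collagenolytic cathepsin best known from osteoclasts, had 56.1 with anti-ACBP and 109.7 with IgG (-0.97 ± 0.220, adjusted p = 9.64e-05). Ctsk had the fewest counts behind it of the 37 genes on MCD and the largest SE there. Ctsz, a carboxypeptidase, and Ctsa, which shields Glb1 and Neu1 from degradation in a complex, fell less, by 0.37 and 0.31 on the log2 scale.

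Ctsh, an aminopeptidase, was the 1 protease that rose, with 9408 normalized counts with anti-ACBP and 8091 with IgG in the authors' deposited MCD table (0.22 ± 0.077, adjusted p = 0.0190). Its value on chow was nearly the same, 0.20 ± 0.101, and was not called there (adjusted p = 0.20). Scaled to column totals, Ctsh lost its call on MCD (0.03). Ctsc, which activates the serine proteases of immune cells, had 2906 with anti-ACBP and 2443 with IgG (0.25 ± 0.139, adjusted p = 0.171). Tpp1, a tripeptidyl peptidase, and Ctso, another cysteine cathepsin, were not called, at 0.10 ± 0.093 and -0.13 ± 0.063.

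Glycosidases, which strip sugars from glycoproteins and glycolipids, split on MCD into 3 that were lower, 1 that was higher and 3 without a call. Gla, the alpha-galactosidase that is deficient in Fabry disease, had 149.8 normalized counts with anti-ACBP and 320.3 with IgG in the authors' deposited MCD table, 2.14-fold lower (-1.10 ± 0.151, adjusted p = 1.28e-11). Gusb, a beta-glucuronidase, had 1148 with anti-ACBP and 1594 with IgG (-0.47 ± 0.109, adjusted p = 1.24e-04). Hexa, the alpha subunit of beta-hexosaminidase, had 2155 with anti-ACBP and 2929 with IgG (-0.44 ± 0.095, adjusted p = 2.93e-05). Glb1, the beta-galactosidase, went the other way, with 383 normalized counts with anti-ACBP and 253 with IgG, 1.51-fold higher (0.60 ± 0.102, adjusted p = 7.32e-08). Glb1 was the gene with the largest rise of the 37 and kept its call with column totals and at an adjusted p under 0.01. Gaa, the acid alpha-glucosidase that degrades glycogen, Neu1, a sialidase, and Man2b1, an alpha-mannosidase, were not called, at 0.27 ± 0.140, 0.09 ± 0.076 and -0.05 ± 0.063.

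Proteins of the lumen that handle lipid or assist other enzymes were lower in 3 of 4 cases on MCD, with a median of -0.59. Psap, the precursor of the saposins that present glycolipids to hydrolases, had 18175 normalized counts with anti-ACBP and 31219 with IgG in the authors' deposited MCD table (-0.78 ± 0.100, adjusted p = 2.08e-13). Lipa, the acid lipase that hydrolyses cholesteryl esters and triglycerides in lysosomes, had 7367 with anti-ACBP and 11888 with IgG (-0.69 ± 0.113, adjusted p = 1.66e-08). Npc2, which hands cholesterol to NPC1, had 2438 with anti-ACBP and 3437 with IgG (-0.49 ± 0.080, adjusted p = 1.28e-08). The cholesterol-handling pair thus differed in outcome on MCD, since Npc2 fell and Npc1 was not called. Grn, the precursor of granulins, had 7155 with anti-ACBP and 9507 with IgG (-0.41 ± 0.193) and was not called (adjusted p = 0.0929).

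V-ATPase subunits were lower in 5 of 7 cases on MCD, with 0 higher and a median of -0.23. Atp6v0d2, an isoform of the V0 d subunit known from osteoclasts and macrophages, showed the largest fall of the 37 genes. Its level was 199.8 normalized counts with anti-ACBP and 1353 with IgG in the authors' deposited MCD table, 6.76-fold lower (-2.76 ± 0.209, adjusted p = 5.16e-37). Atp6v0d1, the isoform found in most cells, had 3379 with anti-ACBP and 3409 with IgG (-0.01 ± 0.104, adjusted p = 0.948), an interval from -0.22 to 0.19. Both d isoforms are built into the same place in the pump, and on MCD their fitted changes lay far apart. In the V1 sector, Atp6v1b2, a B subunit, had 1793 with anti-ACBP and 2889 with IgG (-0.69 ± 0.081, adjusted p = 9.12e-16). Atp6v1a, the catalytic A subunit, had 1750.4 with anti-ACBP and 2286 with IgG (-0.38 ± 0.076, adjusted p = 5.55e-06). Atp6v1h, the regulatory H subunit, and Atp6v0c, which forms the proton-carrying ring, changed less, at -0.22 ± 0.077 (adjusted p = 0.0169) and -0.23 ± 0.075 (adjusted p = 0.0102). The accessory subunit Atp6ap1 was not called at -0.12 ± 0.073.

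Of the MiT factors, Mitf had 121 normalized counts with anti-ACBP and 198 with IgG in the authors' deposited MCD table and was lower (-0.71 ± 0.125, adjusted p = 2.48e-07). Tfe3 had 1115 with anti-ACBP and 1249 with IgG (-0.16 ± 0.094) and was not called (adjusted p = 0.185). Their relatives outside the list were not called either, with Tfeb at 0.28 ± 0.155 (adjusted p = 0.169) and Tfec at -0.42 ± 0.195 (adjusted p = 0.0916). On the authors' scale Mitf was thus the only MiT gene of the 4 with a call on MCD, whereas with column totals Tfe3 (-0.35, adjusted p = 0.00105) and Tfec (-0.60, adjusted p = 0.00812) were lower there too. Per kilobase of exon length, Mitf had 22.7 normalized counts with anti-ACBP and 37.3 with IgG, and Tfe3 had 308 with anti-ACBP and 345 with IgG.

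Per kilobase of exon length, Lamp1, Ctsd and Psap had the highest levels of the 37 genes on MCD. Lamp1 had 11251 normalized counts per kilobase with anti-ACBP and 11331 with IgG, Ctsd had 7435 with anti-ACBP and 12346 with IgG, and Psap had 6624 with anti-ACBP and 11377 with IgG. Lamp1 was therefore the first of these 3 with anti-ACBP and the last with IgG. Gene lengths came from a GENCODE annotation of another build, so small differences in this order are not firm.

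**Figure D3:**
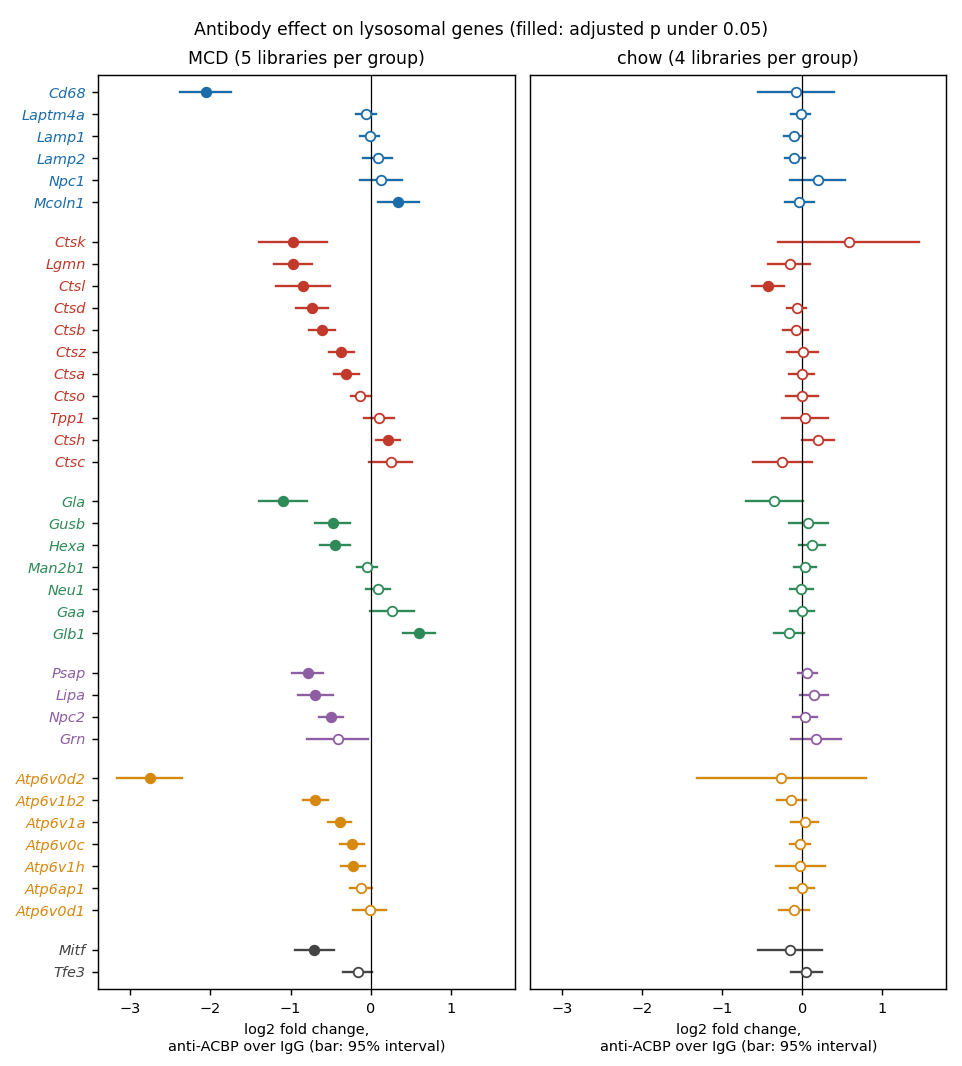
Log2 fold change of anti-ACBP over IgG for each lysosomal gene, as deposited, on MCD (left) and on chow (right), with bars for the 95% interval from the deposited SE and filled points for adjusted p under 0.05. On MCD 20 filled points lie left of 0 and 3 right of it, and on chow Ctsl alone is filled.

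On chow the antibody made little measurable difference to these genes. Ctsl had 11531 normalized counts with anti-ACBP and 15551 with IgG in the authors' deposited chow table (-0.43 ± 0.104, adjusted p = 0.000901). It was the 1 gene called on both diets, and in the same direction. For abundant genes the chow intervals were narrow. Psap had 14244 with anti-ACBP and 13647 with IgG, an interval from -0.06 to 0.18, and Lamp1 had 20157 with anti-ACBP and 21826 with IgG, an interval from -0.23 to 0.00. For the low genes they were wide: Atp6v0d2 had 20.9 with anti-ACBP and 25.1 with IgG, an interval from -1.32 to 0.79, and Ctsk had 34.1 with anti-ACBP and 22.7 with IgG, an interval from -0.30 to 1.46. Cd68 had 161 with anti-ACBP and 170.3 with IgG (-0.08 ± 0.244, adjusted p = 0.890). A change on chow as large as that on MCD lies outside the intervals of Cd68 and Atp6v0d2.

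The difference between both antibody effects was tested directly, as the MCD log2 fold change minus the chow one over their joint SE. It was negative for 16 of 37 genes (43.2%) and positive for 1, Glb1 (2.70%). Over the 14607 genes tested in both tables, 10.6% had a negative and 12.6% a positive difference. All 16 were lower on MCD, and 0 genes without a call on MCD had such a difference. The MCD fold change is itself part of the difference, so this overlap is in part built in. Psap differed by -0.84 ± 0.117 (SE; adjusted p = 5.64e-11) and Cd68 by -1.98 ± 0.294 (adjusted p = 1.16e-09). For Glb1 the difference was 0.77 ± 0.142 (adjusted p = 1.94e-06). The difference for Ctsl, which fell on both diets, was -0.41 ± 0.199 and did not pass (adjusted p = 0.120). Nor did those of Mitf (-0.56 ± 0.236, adjusted p = 0.0714) and Mcoln1 (0.38 ± 0.160, adjusted p = 0.0681). Lysosomal genes thus carried negative differences more often than the tested genes as a whole, and a positive one less often, as shares without a test of the list.

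The MCD table and the chow table were normalized separately, so levels on both diets were set side by side without a test. The log2 ratio of the group means, MCD over chow, was centred on its median over 9101 genes with a mean of at least 5 CPM (normalized counts per 1000000 of the column total) in both tables. That median was 0.29 for the anti-ACBP groups and 0.24 for the IgG groups. After centring, the lysosomal genes had a median ratio of 0.09 under anti-ACBP and 0.38 under IgG. With anti-ACBP 25 of 37 were above 0, and with IgG 29 were. A ratio of 1 or more was reached by 1 gene (2.70%) under anti-ACBP and by 7 genes (18.9%) under IgG, against 0.934% of the 9101 genes under anti-ACBP and 4.45% under IgG. Cd68, Ctsk, Gla, Atp6v0d2 and Mitf were below the minimum of 5 CPM and are not among the 9101. Of the 32 lysosomal genes that met it, 0 reached a ratio of 1 under anti-ACBP and 4 (12.5%) did under IgG, with medians of 0.08 under anti-ACBP and 0.22 under IgG. Of the lysosomal genes, 28 had a lower ratio under anti-ACBP than under IgG, a count built from the same 4 means as the antibody effects. No share over all genes was set beside that count, so it does not set these genes apart.

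Atp6v0d2 had by far the highest diet ratio, 2.96 under anti-ACBP and 5.51 under IgG. Its deposited means were 199.8 normalized counts in MCD anti-ACBP livers and 20.9 in chow anti-ACBP livers, and 1353 in MCD IgG livers and 25.1 in chow IgG livers. Cd68 had ratios of 0.64 under anti-ACBP and 2.68 under IgG, and Ctsk 0.43 under anti-ACBP and 2.04 under IgG. The other genes past 1 under IgG were Ctsl (0.74 under anti-ACBP and 1.21 under IgG), Lgmn (0.29 under anti-ACBP and 1.15 under IgG), Ctsd (0.31 under anti-ACBP and 1.02 under IgG) and Lipa (0.12 under anti-ACBP and 1.01 under IgG). With the centre taken from genes at 1 CPM or more, 5 genes rather than 7 reached 1 under IgG. All 7 were lower with anti-ACBP on MCD. The MCD IgG mean stands in both this ratio and the antibody effect, so choosing genes by the ratio favours such falls. Glb1 stood at the other end, with -0.46 under anti-ACBP and -1.18 under IgG. It was lower on MCD than on chow under both antibodies, and less so with anti-ACBP. The ratio of Lamp1 was 0.02 under anti-ACBP and -0.03 under IgG, and that of Lamp2 was -0.35 under anti-ACBP and -0.48 under IgG.

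**Figure D4:**
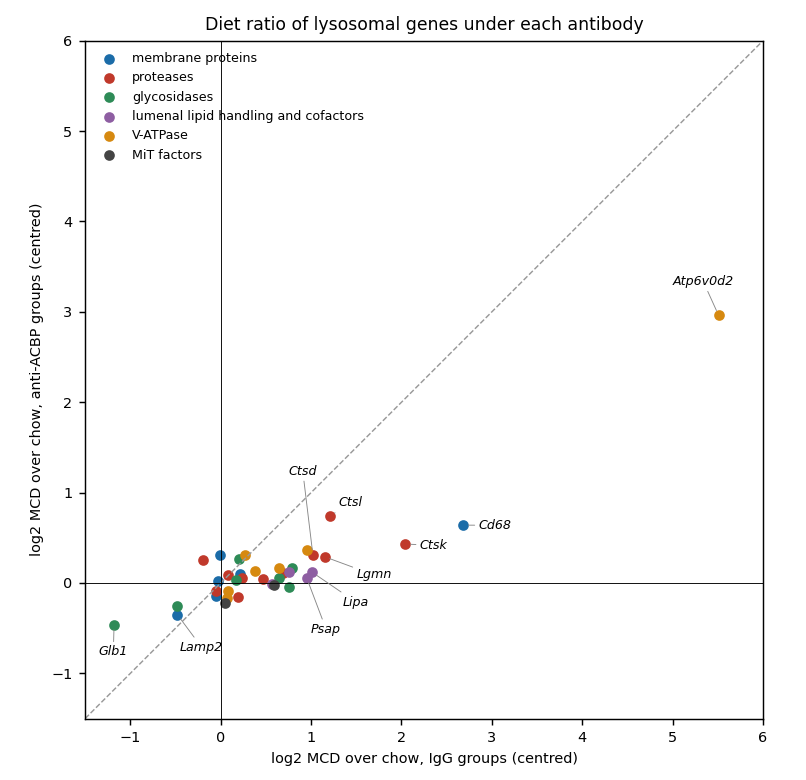
Centred log2 ratio of MCD over chow for each lysosomal gene, in the anti-ACBP groups on the vertical axis and in the IgG groups on the horizontal axis, with colours for roles. The dashed line marks equal ratios, and points below it have a lower ratio under anti-ACBP. Atp6v0d2 (2.96 under anti-ACBP, 5.51 under IgG) and Cd68 (0.64 under anti-ACBP, 2.68 under IgG) lie farthest from the line.

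Other genes of the lysosomal pathway were taken from lists of known members. Of 139 tested on MCD, 42 were lower, 14 were higher and the median was -0.07, beside 16.2% lower and 14.7% higher over all genes tested. With column totals 66 were lower, 1 was higher and the median was -0.25, beside 5468 lower and 1398 higher of all genes tested. A called fall of 1 or more on the log2 scale was seen in 11 of the 139, and in 3 of the 37 genes described above. Over all 20265 genes tested on MCD, 1510 showed such a fall. No test compared the lists. Among 38 other hydrolases and activators, 13 were lower and 4 were higher, with a median of -0.14. Ctss, a cysteine cathepsin of antigen-presenting cells, had 988 normalized counts with anti-ACBP and 4905 with IgG in the authors' deposited MCD table (-2.31 ± 0.153, adjusted p = 2.22e-48). Ifi30, a thiol reductase, and Pld3, a nuclease of the lysosome, were lower on MCD by 0.82 and 0.81 on the log2 scale. Ctss therefore fell more than any protease of the main list. On chow 3 of the 38 were lower, with Ifi30 at -0.44 ± 0.157 (adjusted p = 0.0453) and Naglu, which degrades heparan sulfate, at -0.33 ± 0.087 (adjusted p = 0.00341), and 0 were higher. Over all 14618 genes tested on chow with the authors' scale, 6.46% were lower and 5.58% were higher. With column totals 0 of the 38 were lower on chow and 3 were higher, beside 533 lower and 2605 higher of those 14618 genes.

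Among 34 other membrane proteins and transporters tested on MCD, 15 were lower and 4 were higher (median -0.11). Gpnmb, a glycoprotein of lipid-laden macrophages, had 276 normalized counts with anti-ACBP and 6629 with IgG in the authors' deposited MCD table (-4.58 ± 0.214, adjusted p = 1.32e-97). On chow it had 4.78 with anti-ACBP and 5.24 with IgG and was not tested. Mcoln2, a relative of Mcoln1, had 6.2 with anti-ACBP and 29.4 with IgG on MCD (-2.22 ± 0.509), Slc15a3, a peptide and histidine transporter, had 197 with anti-ACBP and 877 with IgG (-2.16 ± 0.208), and Slc37a2 had 89.8 with anti-ACBP and 396 with IgG (-2.14 ± 0.162). Cd63, a tetraspanin of late endosomes, had 379 with anti-ACBP and 1532 with IgG (-2.02 ± 0.217, adjusted p = 1.22e-18). Each of these 5 fell by more than 2 on the log2 scale, as did Cd68 and Atp6v0d2 of the 37 genes. On chow 3 of 32 were lower, led by Abca2 at -0.44 ± 0.102 (adjusted p = 5.79e-04) and Litaf at -0.37 ± 0.086 (adjusted p = 5.73e-04). Over all genes tested on chow 6.46% were lower. With column totals 2 of the 32 were lower on chow and 5 were higher, beside 533 lower and 2605 higher of all 14618 genes tested.

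Of 14 other V-ATPase subunits tested on MCD, 4 were lower and 0 were higher, with a median of -0.09 in the authors' deposited table. They were Atp6v0e2 (-1.48 ± 0.211), Atp6v0a1 (-0.52 ± 0.108), Tcirg1 (-0.42 ± 0.108) and Atp6v0e (-0.40 ± 0.071), and their adjusted p-values ran up to 6.02e-04. All 4 belong to the V0 sector. On chow Atp6v0a1 was the 1 subunit called with the authors' scale (-0.31 ± 0.110, adjusted p = 0.0416), a call lost with column totals (-0.18). Column totals gave 0 lower and 5 higher of the 13 tested on chow, beside 533 lower and 2605 higher of all 14618 genes tested. Sorting and biogenesis genes, which carry hydrolases from the Golgi to the lysosome, had 7 lower and 2 higher of 29 on MCD (median -0.01). Igf2r, a mannose 6-phosphate receptor, Arl8a, a GTPase that moves lysosomes, and Gnptab, which makes the mannose 6-phosphate tag, were lower by 0.72, 0.61 and 0.56 on the log2 scale. Bloc1s1, a subunit of complexes that position lysosomes, was higher at 0.34 ± 0.104, and was not called with column totals (0.16). On chow Gga2 (0.51 ± 0.150) and Gga3 (0.43 ± 0.153), adaptors of hydrolase sorting, were higher.

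Genes of nutrient sensing at the lysosome, where mTORC1 is switched on, had 3 lower and 4 higher of 24 on MCD. These counts were near the shares over all genes tested, and the median was 0.06. With column totals 7 were lower, 0 were higher and the median was -0.12. On that scale 5468 of all 20265 genes tested were lower and 1398 higher, since every gene shifts by -0.19, so the counts do not set this list apart. Rragd, a Rag GTPase that MiT factors are known to induce, had 82.0 normalized counts with anti-ACBP and 219.7 with IgG in the authors' deposited MCD table (-1.42 ± 0.192, adjusted p = 5.65e-12). Ywhaz, a 14-3-3 protein, was lower at -0.42 ± 0.091. Tsc2, an inhibitor of mTORC1, and Lamtor4, a subunit of the Ragulator complex, were higher at 0.37 ± 0.091 and 0.33 ± 0.083, and neither was called with column totals (0.19 for Tsc2 and 0.15 for Lamtor4). On chow 3 were higher and 0 lower, led by Ppp3r1, the calcineurin regulatory subunit (0.42 ± 0.070, adjusted p = 3.03e-07), and Rragc (0.39 ± 0.082, adjusted p = 9.50e-05). Ppp3r1 was also higher on MCD, at 0.17 ± 0.058 with the authors' scale but at -0.01 with column totals.

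Markers of macrophages were also lower with anti-ACBP on MCD. Of 24 macrophage and Kupffer cell markers, 18 were lower and 1 was higher, with a median of -1.06 in the authors' deposited table. Of all genes tested on MCD 16.2% were lower and 14.7% were higher, with a median of 0.02. For the 24 markers no test compared the list with all genes. Their summed normalized counts were 14082 with anti-ACBP and 30374 with IgG on MCD, and 10149 with anti-ACBP and 11460 with IgG on chow, where 0 were called. None of the 24 was at 0 in any group. Itgax (-3.25 ± 0.199), Trem2 (-3.07 ± 0.186), Cx3cr1 (-2.88 ± 0.239) and Itgam (-2.54 ± 0.279), genes of recruited or lipid-associated macrophages, fell most. Adgre1, the F4/80 antigen, was lower at -1.10 ± 0.229, and Clec4f, a marker of resident Kupffer cells, was not called at 0.38 ± 0.398 (adjusted p = 0.519). The marker that rose was Timd4, also of resident Kupffer cells (1.14 ± 0.435, adjusted p = 0.0309), named after its values were seen. The other markers of this list without a call on MCD went both ways. They were Marco (-0.81 ± 0.503), Vsig4 (-0.15 ± 0.275), Cd163 (0.99 ± 0.657) and Mrc1 (0.08 ± 0.158). All 11 stellate cell and fibroblast markers were lower on MCD (median -1.09), with sums of 11796 with anti-ACBP and 24019 with IgG. On chow 3 of them were lower and 1 was higher, beside 6.46% lower and 5.58% higher over all genes tested there.

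Of 16 hepatocyte markers 9 were higher on MCD and 1 was lower, with a median of 0.37, beside 14.7% higher and 16.2% lower over all genes tested. With column totals 5 were higher, 1 was lower and the median was 0.19, beside 1398 higher and 5468 lower of all 20265 genes tested. They summed to 5522782 normalized counts with anti-ACBP and 4483431 with IgG on MCD, and to 4184663 with anti-ACBP and 3988788 with IgG on chow. As shares of each 1000000 normalized counts on MCD, these sums were 140179 with anti-ACBP and 129497 with IgG. Alb, the albumin gene, was higher on MCD at 0.41 ± 0.111 (adjusted p = 0.00143 in the authors' deposited table), and was not called with column totals (0.22, adjusted p = 0.111). In bulk liver, fewer cells of a type and less RNA per cell cannot be told apart. The part of these markers in the lysosomal values was not tested.

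**Figure D5:**
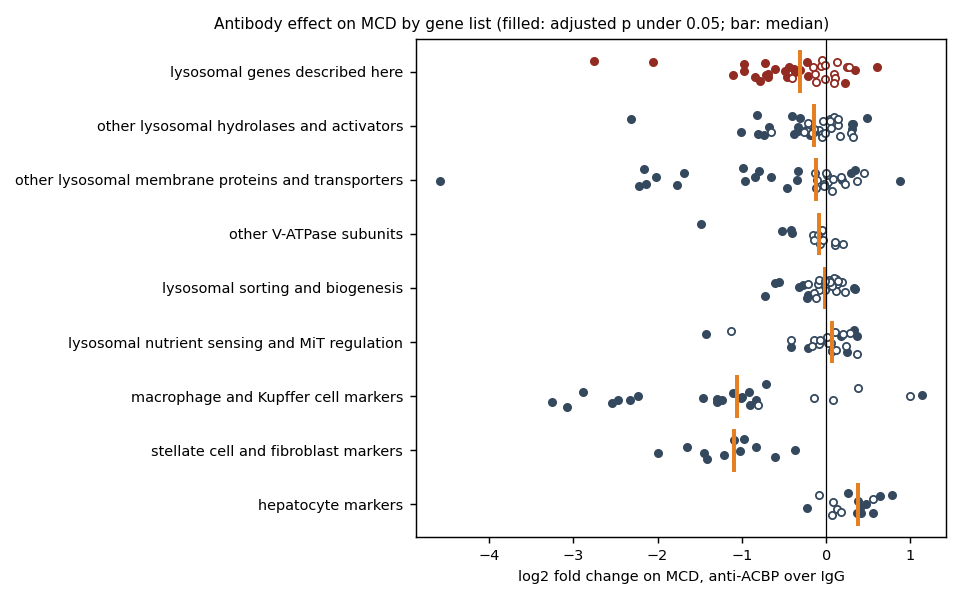
Log2 fold change of anti-ACBP over IgG on MCD for the 37 lysosomal genes (top row), the other lysosomal lists and the markers of 3 cell types, with filled points for adjusted p under 0.05 and an orange bar at each list's median. The median is -0.31 for the 37 genes, between -0.14 and 0.06 for the other lysosomal lists, -1.06 for macrophage markers, -1.09 for stellate cell markers and 0.37 for hepatocyte markers. Column totals shift every point, and every other gene tested on MCD, by -0.19, which takes the median of the nutrient sensing list to -0.12. Over all genes tested the median was 0.02 before that shift.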

How the data were processed

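Liver mRNA libraries of 4 groups were analysed, with groups taken from the labels. Per the submitters' processing notes, reads were processed with HISAT2 2.2.1, HTSeq 0.13.5 and DESeq2 on mm39. The authors deposited 1 table per diet. Its deposited signal columns are normalized counts, averaged per group over read counts divided by size factors, and the group labels of the columns name isotype and antibody. The authors' fold change is on a log2 scale, and the deposited p-value columns hold DESeq2's p and its adjusted value, rounded to 6 decimals. Single-read steps of the means showed 5 libraries per group on MCD, with size factors from 0.838 to 1.084, and 4 per group on chow, with size factors from 0.905 to 1.107. Which labelled chow samples stand behind the means is not known here.

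Adjusted p-values under 0.001 were recomputed (Wald statistic from the deposited fold change and SE, Benjamini-Hochberg over the genes tested), which changed 0 calls. Differences between diets used a normal p from the summed squared SEs, adjusted over 14607 genes. The calculation was run on simulated data with normal noise drawn from those same SEs, which cannot check the SEs themselves or the scale. Intervals are fold change ± the normal 95% range of the SE. The chow and MCD means share no normalization. Python 3.11.15, numpy 2.4.6, scipy 1.17.1, pandas 2.3.3 and matplotlib 3.10.9 were used. Promoters came from RefSeq tables of GRCm38.p6, whereas the deposited tables give no coordinates, and 34 of 39 windows matched a GENCODE M21 transcript of the gene just after the start. Exon lengths were the union of GENCODE M21 exons.

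The genes and lists were chosen with earlier results of these data known. All 37 genes were named, and from each other list up to 4 called genes on MCD and 2 on chow with the largest change, plus Tfeb, Tfec, Cd63, Ctss, Adgre1, Trem2, Clec4f, Alb and Dbi. A further gene that the rule names is not reported here. Alternatives were column totals as the scale, a minimum of 5 CPM, no filter, a threshold of 0.01 and other centrings of the diet ratio.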

Additional observations from a re-analysis of the deposited data

Results flagged for a closer look

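For 17 lysosomal genes the effect of anti-ACBP on MCD differed from its effect on chow by the test of the difference itself (MCD log2 fold change minus chow log2 fold change, both anti-ACBP over IgG, with a Benjamini-Hochberg adjusted p under 0.05 over 14607 genes). Among membrane proteins and V-ATPase subunits the difference was -1.98 for Cd68, -2.49 for Atp6v0d2, -0.55 for Atp6v1b2 and -0.41 for Atp6v1a. Among proteases it was -1.55 for Ctsk, -0.80 for Lgmn, -0.66 for Ctsd, -0.53 for Ctsb, -0.37 for Ctsz and -0.30 for Ctsa. Ctsa came closest to the threshold (adjusted p = 0.0473). Glycosidases showed differences of -0.75 for Gla, -0.56 for Hexa and -0.55 for Gusb, and 0.77 for Glb1, the only positive one of the 17. Psap and Lipa each differed by -0.84 and Npc2 by -0.53. On the chow side Cd68, Ctsk, Gla and Atp6v0d2 had fewer than 5 CPM, and the SE of the difference was 0.577 for Atp6v0d2 and 0.50 for Ctsk.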

How the results depend on the processing

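The deposited tables were used as group means, so leaving out single replicates and the count models were not run, and no paired analysis was possible because the columns carry no replicate numbers. Depth limits the low genes: on chow Atp6v0d2 and Ctsk had the widest intervals. The ratio of the deposited group means gave the same direction as the deposited fold change for all 37 genes in both tables. Without a filter on low values every call of the 37 genes was kept in both tables. With a minimum of 5 CPM, Ctsk dropped out on MCD, and Cd68, Ctsk, Gla, Atp6v0d2 and Mitf dropped out on chow and from the difference. No other call among the 37 changed with that minimum.

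Scaling to column totals moved most. On MCD it left 1 of 37 genes higher, with Ctsh at 0.03 and Mcoln1 at 0.16, and it gave 5468 lower and 1398 higher genes in all. Lamp1, Ctso, Man2b1, Atp6ap1, Grn, Laptm4a and Tfe3 were then called lower, for 27 in all. On chow it gave 4 higher genes of the 37 (Ctsh, Hexa, Lipa and Psap), and 533 lower and 2605 higher in all. The difference between diets was then negative for 28 of 37 genes, and for 4721 of all genes, with 717 positive. The difference reversed to -0.22 for Lamp1 and -0.31 for Ctsh, and the MCD value of Ppp3r1 to -0.01. For the diet ratio, column totals gave a median of 0.22 under anti-ACBP and 0.78 under IgG, with 15 genes at 1 or more under IgG. The moves of the antibody effects follow from the shift of -0.19 on MCD and 0.14 on chow. The diet ratios moved because column totals replace the centring.

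With a threshold of 0.01, 18 of 37 genes were lower on MCD and 1 was higher, since Ctsh, Mcoln1, Atp6v0c and Atp6v1h no longer passed. On chow 565 genes were then lower and 442 higher in all, and the difference was negative for 956 and positive for 1188. The minimum of 5 CPM gave 2057 lower genes on MCD and 819 negative differences, from fewer genes tested. Without centring, the diet ratio had a median of 0.39 under anti-ACBP, with 2 genes at 1 or more, and of 0.62 under IgG.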

Other observations

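Markers of other cell types were measured as well. Over all 20265 genes tested on MCD 16.2% were lower and 14.7% were higher, and with column totals 5468 of these genes were lower and 1398 higher. Of 10 sinusoidal endothelial markers, 1 was lower and 2 were higher with anti-ACBP on MCD (4 lower and 0 higher with column totals), with sums of 12577 normalized counts with anti-ACBP and 12297 with IgG in the authors' deposited MCD table. Of 7 cholangiocyte markers 2 were lower, with sums of 2810 with anti-ACBP and 4508 with IgG. Spp1, 1 of the 2, is also in the macrophage list and made up 1682 of the anti-ACBP sum and 3161 of the IgG sum. Of 4 neutrophil markers tested 2 were lower (sums of all 8 listed: 252 with anti-ACBP and 627 with IgG), and of 12 T, NK and B cell markers 1 was lower (285 with anti-ACBP and 340 with IgG). On chow 1 endothelial marker was higher and 1 cholangiocyte marker was lower, and 0 neutrophil or lymphocyte markers were called by the authors' tests. Of all genes tested on chow 6.46% were lower and 5.58% were higher.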
